A study of Mus musculus with 8 samples.

Results

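The guidance genes described here encode the ephrins and their Eph receptors, the semaphorins with the plexins and neuropilins, the Slits with the Robo receptors, and the netrins with the Unc5 receptors. They were chosen by gene symbol and family, and 67 of the 54532 entries of the count table met this rule. They fall into 12 families, with 34 ligands and 33 receptors. Of the 67, 52 had enough counts to be tested, among 14150 tested genes in all, and 15 did not.

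The libraries came from primary lung fibroblasts (pFBs) of female mice on a C57/black background, cultured in DMEM with serum and given no treatment. WT fibroblasts came from wild type mice and HOMO fibroblasts from mice homozygous for a CRISPR/Cas9 knock-in of human IGFBP5 (hIGFBP5), which is expressed in all tissues from the *Ef1a1* promoter and encodes a secreted insulin-like growth factor binding protein. The 2 genotypes had 4 libraries each, called WT1 to WT4 and HOMO1 to HOMO4, and n counts libraries. Neither the age of the mice nor how many mice the libraries stand for is stated, so p-values measure the spread between these libraries, which may be technical.

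These ligands and receptors were named for steering growing axons, and they also act in vessels and connective tissue. Ephrins are bound to the membrane and signal through Eph receptor tyrosine kinases on a neighboring cell, with signals running in both directions. Semaphorins signal through plexins, which act on small GTPases, and most class 3 semaphorins need a neuropilin as well, while Slits bind Robo receptors and netrins bind Dcc, neogenin and Unc5 receptors. In fibroblasts these systems are known for acting on cell shape, adhesion and migration.

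Of the 52 tested guidance genes, 11 were differentially expressed genes (DEGs) between HOMO and WT, which is 21.2%, against 12.1% of all tested genes (1716 of 14150). DEGs were called in edgeR's quasi-likelihood test where the adjusted p (Benjamini-Hochberg) lay under 0.05 and the log2 fold change was beyond 0.6 in either direction. Upregulated in HOMO were 8, which is 15.4% against 5.94% of all tested genes, namely *Sema3a*, *Sema3e*, *Sema5a*, *Plxnd1*, *Efna5*, *Efnb2*, *Epha1* and *Epha7*. Downregulated were 3, *Efna3*, *Epha3* and *Ntn4*, which is 5.77% against 6.18%. Ligands gave 7 of the DEGs (5 up and 2 down of 29 tested) and receptors gave 4 (3 up and 1 down of 23 tested). The median log2 fold change was 0.25 over the 52 guidance genes and -0.04 over all tested genes, with 29 guidance genes higher and 23 lower in HOMO. All 11 DEGs had genotypes that did not overlap, as did 15 of the 52 guidance genes, a share of 28.8% that is close to the 27.3% of all tested genes. DESeq2 gave 20 DEGs among the 58 guidance genes for which it returned an adjusted p (34.5%), against 16.5% of 17610 genes, and these included all 11 named above. The number of calls depended on single libraries, with 5 guidance genes called without HOMO1 or without HOMO2 (9.09%, against 3.52% and 3.56% of all tested genes) and 19 without WT3 (35.2% against 15%). When near-identical libraries were summed, leaving 3 WT and 2 HOMO units, 0 of 59 guidance genes were called in edgeR. The lowest adjusted p was 0.138, and 14 of the 59 had an unadjusted p under 0.05, as did 2057 of 16130 genes. All 11 kept their direction, which was fixed beforehand, because genotypes that do not overlap cannot reverse when libraries of a genotype are summed. In that fit 0 of all tested genes were called.

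**Figure D1:**
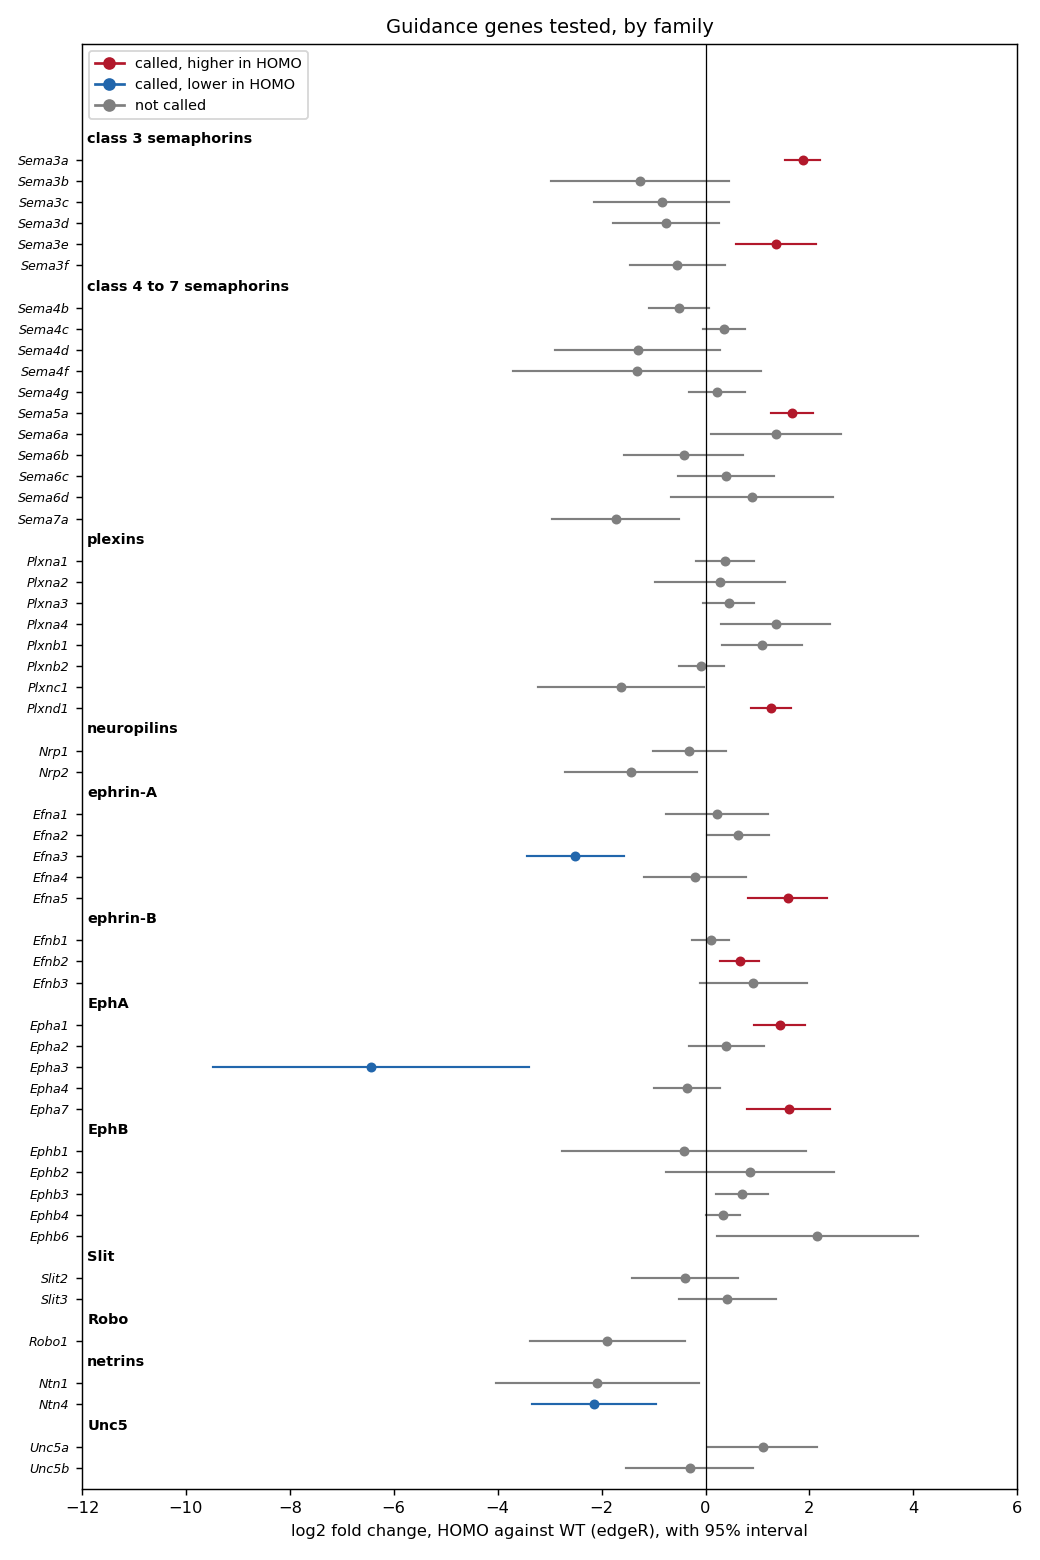
Log2 fold change of HOMO against WT (horizontal axis, edgeR) for the 52 tested guidance genes, ordered by family, with bars for the 95% interval, in red for the 8 upregulated and blue for the 3 downregulated DEGs and in gray for the other 41. *Epha3* stands farthest from 0 and has the widest interval, from -9.49 to -3.39, while the interval of *Sema3a* runs from 1.53 to 2.21.

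The 250 bases before the RefSeq start site are shown in build GRCm38.p6 for *Sema3a* and *Epha3*, the DEGs without a GC box, and for *Sema3e* and *Plxnd1*, a ligand and its receptor that both rose. They are written 5′ to 3′ on the strand of the gene and end at the base before the start. In GENCODE M21 (GRCm38) the *Sema3a* window lies in an intron of longer non-coding transcripts of *Sema3a*, before 1 of several annotated starts, and no annotated gene covers the other windows. Capitals mark the GC box GGGCGG on either strand (CCGCCC on the other), with adjoining matches run together.
*Sema3a* (chr5:13396534-13396783, plus strand): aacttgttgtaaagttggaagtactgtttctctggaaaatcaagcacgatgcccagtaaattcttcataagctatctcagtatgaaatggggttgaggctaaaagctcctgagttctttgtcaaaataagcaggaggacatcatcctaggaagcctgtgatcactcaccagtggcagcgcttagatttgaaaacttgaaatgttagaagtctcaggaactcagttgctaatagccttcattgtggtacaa
*Sema3e* (chr5:14025026-14025275, plus strand): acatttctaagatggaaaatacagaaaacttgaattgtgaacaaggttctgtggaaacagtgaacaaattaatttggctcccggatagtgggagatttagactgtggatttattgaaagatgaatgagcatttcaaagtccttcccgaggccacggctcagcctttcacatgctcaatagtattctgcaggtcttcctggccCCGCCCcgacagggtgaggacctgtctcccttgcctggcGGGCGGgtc
*Plxnd1* (chr6:115995006-115995255, minus strand): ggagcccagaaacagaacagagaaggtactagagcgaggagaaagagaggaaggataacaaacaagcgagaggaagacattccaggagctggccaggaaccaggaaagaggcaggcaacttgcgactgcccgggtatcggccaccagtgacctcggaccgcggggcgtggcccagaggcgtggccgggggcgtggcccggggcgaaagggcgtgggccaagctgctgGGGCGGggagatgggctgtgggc
*Epha3* (chr16:63864176-63864425, minus strand): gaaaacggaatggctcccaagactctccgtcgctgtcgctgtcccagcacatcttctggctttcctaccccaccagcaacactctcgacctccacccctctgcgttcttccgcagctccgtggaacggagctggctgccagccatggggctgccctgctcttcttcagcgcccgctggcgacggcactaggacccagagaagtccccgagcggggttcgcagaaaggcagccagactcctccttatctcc
The GC box was found in the same window of 9 of the 11 DEGs, all but *Sema3a* and *Epha3*, and in 42 of the 58 guidance genes with a listed promoter, against 32.9% of 27025 first-listed promoters. The guidance promoters were also richer in G and C, with a median of 64.6% and 16 CpG against 52% and 6 CpG for all promoters. The *Sema3a* window had 40.8% G and C and 2 CpG, the lowest values among the 11 DEGs. Of the other motifs searched on both strands, CCAAT was found in 2 of the 11 DEGs (34.5% of all promoters), TATAAA in 1 (13.0%), the AP-1 motif TGANTCA in 0 (6.87%) and the EGR1 motif GCGNGGGCG in 4 (4.65%). Among the 58 guidance promoters these motifs were found in 15, 2, 2 and 11. The last can overlap a GC box. A match describes the letters of these windows, not a bound site.

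All 8 libraries held fibroblast RNA, with all 10 fibroblast markers above the floor of 3 counts and their summed level between 13015 and 24445 CPM (library-scaled counts). Of the 10, 2 were called down in HOMO and 0 up. Totals ran from 17236521 to 31987790 counts, so that 3 counts corresponded to between 0.0908 and 0.172 CPM, a floor that covers counting error only. The pairs WT1/WT2, HOMO1/HOMO2 and HOMO3/HOMO4 were near-identical, with a biological coefficient of variation of 4.71 to 7.65% within a pair, while the 9 remaining pairings inside a genotype had 30.0 to 56.4%. In WT4 the median gene of chromosome 12 stood 0.65 above the mean of the other WT libraries on the log2 scale. The same measure was 0.37 and 0.36 for chromosomes 3 and 7 in WT3 and 0.36 for chromosome 4 in WT4. Mouse *Igfbp5* had 7130 counts in WT3 and 112 to 225 in the other WT libraries, against 24 to 57 in HOMO. Macrophage markers summed to 110, 141, 1871 and 1098 CPM in WT1 to WT4 and to 24.2, 23.4, 134 and 156 CPM in HOMO1 to HOMO4. Smooth muscle and pericyte markers were at 824 to 924 CPM in WT1, WT2 and WT4, 2724 CPM in WT3 and 261 to 1471 CPM in HOMO. Of these 7 markers, 1 was called down. Endothelial markers summed to at most 8.59 CPM in any library. The lymphatic endothelial list of 3 markers summed to 3.87 to 29.1 CPM in WT and 14.7 to 21.3 CPM in HOMO, mostly from *Flt4*. That gene was not called (edgeR, log2 fold change 0.52, adjusted p = 0.548). Epithelial markers summed to 0.394 to 5.62 CPM in WT and 4.01 to 16.1 CPM in HOMO, and of 2 tested *Cdh1* was called up (log2 fold change 2.77). Mesothelial markers summed to 52.8 to 235 CPM in WT and 106 to 152 CPM in HOMO. Of the 6 tested, *Wt1* alone was called (up, log2 fold change 3.36), while *Msln* and *Upk3b* had log2 fold changes of -0.52 and 0.09. Neuron and Schwann cell markers summed to 38.9 to 184 CPM in WT and 25.1 to 39.7 CPM in HOMO, with 4 of 6 above the floor, 1 called up, 1 called down and *Snap25* at 0. The part of these cell types in the levels of the guidance genes was not tested. In these bulk samples, fewer cells of a type and less RNA per cell cannot be told apart.

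Among the class 3 semaphorins, which are secreted, 2 of 6 tested members rose and none fell in edgeR, while the family's median log2 fold change was -0.65. *Sema3a*, a repellent ligand that signals through neuropilin-1 and plexin-A receptors, was at 31.6, 26.8, 21.9 and 29.7 CPM in WT1 to WT4 and at 99.9, 90.3, 111 and 101 CPM in HOMO1 to HOMO4. Every HOMO library lay above every WT library, the spread within a genotype was small, and the gene rose 3.66-fold (log2 fold change 1.87, SE 0.15, adjusted p = 0.000628). It was called in each of the 8 fits that left out a library. Where the library left out belongs to a near-identical pair, the other library of the pair stays in the fit, here and for the genes below. When near-identical libraries were summed, *Sema3a* was not called (edgeR, adjusted p = 0.138). *Sema3e*, which binds plexin-D1 directly, without a neuropilin, was at 15.98, 13.0, 30.8 and 9.68 CPM in WT and at 41.0, 36.6, 53.6 and 46.3 CPM in HOMO. The genotypes did not overlap, although WT3 came close to HOMO2, and the gene rose 2.56-fold (log2 fold change 1.36, SE 0.34, adjusted p = 0.0354). This call was lost without WT1, WT2 or any HOMO library, with log2 fold changes of 1.24 to 1.44 and adjusted p of 0.0672 to 0.0899.

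*Sema3c*, a ligand of neuropilin-1 and neuropilin-2, had the highest level per length in its family, 23.0 CPM per kilobase of merged exon. It was at 59.3, 73.0, 403 and 310 CPM in WT and at 128, 121, 112 and 110 CPM in HOMO (log2 fold change -0.84, SE 0.57, adjusted p = 0.339). Limma-voom, which weights the libraries, gave the opposite direction and called it (log2 fold change 0.67, adjusted p = 0.0276). The HOMO libraries lay together between the low WT1 and WT2 and the high WT3 and WT4. *Sema3b* had the same order, with 2.76 and 7.42 CPM in WT1 and WT2, 54.5 and 34.8 CPM in WT3 and WT4 and 9.45 to 11.2 CPM in HOMO. *Sema3d* and *Sema3f* were not called in edgeR with all libraries either (log2 fold change -0.76 and -0.54), while limma-voom and edgeR without WT3 called *Sema3d*. *Sema3g* was outside the test and is given with the low genes.

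In the class 4 to 7 semaphorins, most of them membrane proteins, 1 of 11 tested members rose and none fell in edgeR. *Sema5a*, a transmembrane semaphorin with thrombospondin repeats, was at 32.0, 29.2, 22.8 and 22.2 CPM in WT and at 82.9, 67.5, 94.1 and 91.7 CPM in HOMO. Its genotypes were far apart, and it rose 3.17-fold (log2 fold change 1.66, SE 0.18, adjusted p = 0.00195), a call kept in all 8 fits without a library. The call was lost when near-identical libraries were summed (edgeR, adjusted p = 0.163). *Sema4c*, a ligand of plexin-B2, led the family per length of merged exon (7.03 CPM per kilobase), and *Sema6d* did when the longest transcript was used instead. It was at 24.5, 26.6, 37.9 and 24.6 CPM in WT and at 40.1, 38.5, 32.2 and 33.9 CPM in HOMO, with overlap through WT3 (log2 fold change 0.35, SE 0.18, adjusted p = 0.208). *Sema7a*, the lipid-anchored semaphorin, had a log2 fold change of -1.73 (adjusted p = 0.0669 in edgeR), and DESeq2, limma-voom and edgeR without WT3 called it as lower in HOMO. *Sema6a* had a log2 fold change of 1.36 (adjusted p = 0.128 in edgeR), and limma-voom and edgeR without WT3 called it. *Sema4d*, which is also known from immune cells, was at 2.19 and 2.87 CPM in WT1 and WT2, 11.7 and 19.3 CPM in WT3 and WT4 and 2.03 to 5.92 CPM in HOMO. It was highest in the WT libraries with the most macrophage marker RNA, whose part in its level was not tested.

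The plexins, the signaling receptors of semaphorins, had 1 upregulated member among 8 tested, with 6 of the 8 higher in HOMO and a median log2 fold change of 0.41. *Plxnd1*, the receptor of *Sema3e* known from vessel patterning, was at 25.2, 37.5, 32.6 and 34.4 CPM in WT and at 73.8, 64.8, 90.9 and 82.4 CPM in HOMO. It rose 2.40-fold with no overlap (log2 fold change 1.26, SE 0.17, adjusted p = 0.00436) and was called in all 8 fits without a library. Summing near-identical libraries ended the call (edgeR, adjusted p = 0.201). The receptor and its ligand *Sema3e* were both above every WT library in all 4 HOMO libraries. *Plxnb2* was the most abundant plexin at 121 CPM per kilobase of merged exon, and its levels of 1116, 1133, 667 and 925 CPM in WT and 971, 927, 876 and 862 CPM in HOMO overlapped (log2 fold change -0.08, SE 0.19, adjusted p = 0.808). *Plxna1* followed at 48.9 CPM per kilobase, with a log2 fold change of 0.38.

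*Plxnb1*, a receptor of *Sema4d*, was at 12.9 to 15.2 CPM in WT, at 44.2 and 41.0 CPM in HOMO1 and HOMO2 and at 15.4 and 19.5 CPM in HOMO3 and HOMO4. Its genotypes did not overlap, but HOMO3 stood just above WT1 and the gene was not called in edgeR (log2 fold change 1.08, adjusted p = 0.0667). *Plxna4* also missed edgeR's threshold without overlap, with 3.05 to 13.5 CPM in WT and 15.9 to 20.7 CPM in HOMO (log2 fold change 1.35, adjusted p = 0.0854). DESeq2 called both. *Plxnc1*, a receptor of *Sema7a*, was at 11.3 and 13.4 CPM in WT3 and WT4 and at 1.30 to 2.94 CPM in the other 6 libraries.

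Neither neuropilin was called in edgeR, while DESeq2 called *Nrp2* and limma-voom with sample weights called *Nrp1* as lower in HOMO. *Nrp1*, the co-receptor of *Sema3a*, was at 262, 265, 87.5 and 189 CPM in WT and at 172, 154, 158 and 165 CPM in HOMO, so that WT3 was the lowest of all and the other WT libraries were the highest (log2 fold change -0.31, SE 0.31, adjusted p = 0.523). *Nrp2* was at 42.8, 41.2, 171 and 84.1 CPM in WT and at 16.5, 16.7, 45.9 and 46.4 CPM in HOMO (log2 fold change -1.44, adjusted p = 0.116). Its HOMO libraries split by near-identical pair, and HOMO3 and HOMO4 overlapped WT1 and WT2.

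**Figure D2:**
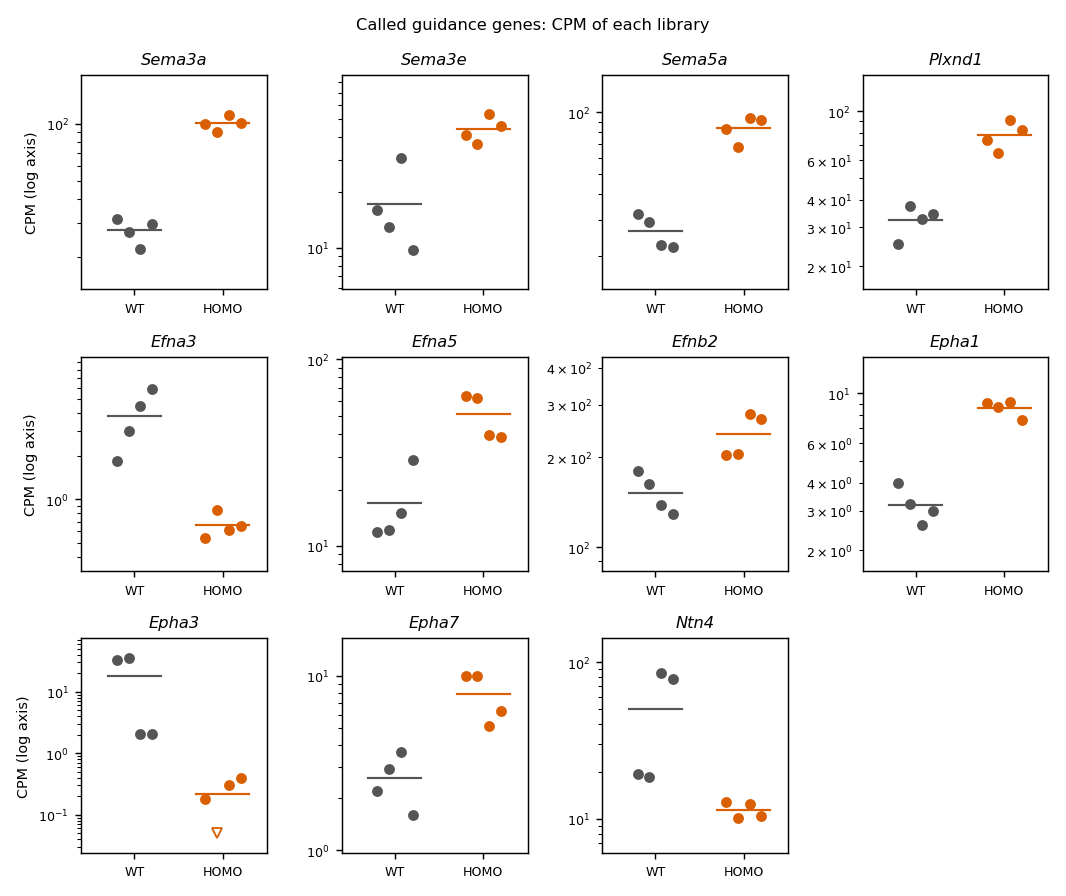
CPM (vertical log axes) of the 11 guidance genes called between HOMO and WT, with 1 point for each library in the order 1 to 4 and a line at the mean of the 4 libraries. WT is gray and HOMO orange. The genotypes do not overlap in any panel, and in *Epha3* and *Ntn4* WT falls into 2 levels. The open triangle is a count of 0 in HOMO2, drawn at 0.05 CPM.

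Of the ephrin-A ligands, which are held in the membrane by a lipid anchor and bind EphA receptors, 1 of 5 rose and 1 fell. *Efna5* had the highest level per length, 8.41 CPM per kilobase of merged exon over the 8 libraries, and was at 11.9, 12.1, 14.9 and 28.9 CPM in WT and at 63.6, 62.1, 39.4 and 38.4 CPM in HOMO. WT4 was nearest to HOMO, and the gene rose 2.99-fold (log2 fold change 1.58, SE 0.33, adjusted p = 0.0201). Without HOMO1 or HOMO2 the call was lost (adjusted p = 0.0690 and 0.0700). *Efna3*, a ligand of the same class, had 33, 70, 78 and 151 counts in WT and 12, 28, 12 and 13 counts in HOMO. It was lower in all HOMO libraries, fell 5.69-fold (log2 fold change -2.51, SE 0.41, adjusted p = 0.00855) and was called in all 8 fits without a library. With near-identical libraries summed it was not called (edgeR, adjusted p = 0.252). Of its merged exon bases, 14.1% are shared with *Gm15998* on the opposite strand. The library kit does not mark strand, so reads from the shared stretch cannot be told apart. *Efna1*, *Efna2* and *Efna4* had log2 fold changes of 0.22, 0.62 and -0.21 and were not called in edgeR with all libraries. Without WT4 edgeR called *Efna2*, and limma-voom called *Efna1* and *Efna2*.

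Among the ephrin-B ligands, which span the membrane and bind EphB receptors, 1 of 3 rose, and all 3 had a positive log2 fold change. *Efnb2*, the ligand of EphB4, was the most abundant ephrin per length (28.6 CPM per kilobase of merged exon). It was at 180, 162, 138 and 129 CPM in WT and at 204, 206, 280 and 270 CPM in HOMO, and rose 1.57-fold (log2 fold change 0.65, SE 0.17, adjusted p = 0.0381). The gap between the genotypes was narrow, from WT1 to HOMO1. The gene lies on chromosome 8, whose 790 tested genes had a median log2 fold change of 0.37, and after centring each chromosome its log2 fold change was 0.26 (adjusted p = 0.328). The call was also lost without WT2, WT4 or any HOMO library (log2 fold change 0.57 to 0.73, adjusted p = 0.0618 to 0.0960). *Efnb1* and *Efnb3* were not called, with log2 fold changes of 0.10 and 0.92.

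The EphA receptors, which bind ephrin-A ligands, had 2 members up and 1 down among 5 tested. *Epha1* was at 3.99, 3.22, 2.58 and 2.98 CPM in WT and at 9.05, 8.71, 9.12 and 7.57 CPM in HOMO. It rose 2.70-fold with no overlap (log2 fold change 1.43, SE 0.22, adjusted p = 0.00691), and the call was kept in all 8 fits without a library. The call was lost when near-identical libraries were summed (edgeR, adjusted p = 0.293). Of its merged exon bases, 6.01% are shared with *Zyx*, the gene of the focal adhesion protein zyxin on the opposite strand. *Zyx* had 7914 to 20426 counts in WT and 22966 to 47584 in HOMO, far above *Epha1*, and also rose (log2 fold change 0.88, SE 0.21, adjusted p = 0.0319). How many *Epha1* reads come from *Zyx* was not tested.

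*Epha7* had 39, 68, 64 and 41 counts in WT and 224, 331, 102 and 125 in HOMO. HOMO1 and HOMO2 were at 9.99 and 10.01 CPM and HOMO3 and HOMO4 at 5.17 and 6.27 CPM, all above the 1.59 to 3.67 CPM of WT, and the gene rose 3.04-fold (log2 fold change 1.60, SE 0.35, adjusted p = 0.0230). Leaving out WT1, HOMO1 or HOMO2 ended the call (adjusted p = 0.0507, 0.0804 and 0.0813). *Epha3*, a receptor that binds ephrin-A5, had 593, 835, 36 and 54 counts in WT and 4, 0, 6 and 8 in HOMO. Its fall was 86.7-fold (log2 fold change -6.44, SE 1.34, adjusted p = 0.0194), but WT itself was divided, with 16.6-fold more in WT1 and WT2 than in WT3 and WT4. The call was lost without HOMO1, HOMO2 or HOMO3 (adjusted p = 0.0733, 0.0598 and 0.0512), with log2 fold changes of -6.66 to -5.94, and limma-voom gave -7.49. *Epha2* led the family per length at 10.5 CPM per kilobase and was at 66.3, 50.4, 21.6 and 30.9 CPM in WT and at 49.2, 49.7, 65.5 and 59.3 CPM in HOMO (log2 fold change 0.40, SE 0.32, adjusted p = 0.419). *Epha4* had a log2 fold change of -0.36 and was not called.

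In edgeR 3 of the 5 EphB receptors had an unadjusted p under 0.05, as did 4573 of the 14150 tested genes. None of the 5 was called in edgeR with all 8 libraries, although DESeq2 called *Ephb3* and *Ephb6*. Limma-voom and edgeR without WT3 each called *Ephb2*, *Ephb3* and *Ephb6*. *Ephb4*, the receptor of ephrin-B2, was the most abundant of them (19.5 CPM per kilobase) and was at 78.1, 66.2, 99.7 and 76.5 CPM in WT and at 109, 107, 94.5 and 94.7 CPM in HOMO. WT3 alone reached into the HOMO range (log2 fold change 0.34, SE 0.15, adjusted p = 0.155). *Ephb3* did not overlap, with 43.6 to 83.1 CPM in WT and 93.3 to 103 CPM in HOMO (log2 fold change 0.70, adjusted p = 0.0686). *Ephb6*, which lacks kinase activity, had 55, 100, 368 and 30 counts in WT and 1147, 1557, 294 and 362 in HOMO. WT3 exceeded HOMO3 and HOMO4, and the log2 fold change of 2.15 had an SE of 0.85 (adjusted p = 0.121).

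Slit and Robo genes gave no DEG in edgeR. *Slit3*, a secreted ligand of Robo receptors, stood at 126 CPM per kilobase of merged exon, beside *Plxnb2* at the top of all the guidance genes. It was at 319, 433, 522 and 1343 CPM in WT and at 918, 861, 805 and 914 CPM in HOMO, so 3 WT libraries lay below HOMO and WT4 above it (log2 fold change 0.42, SE 0.41, adjusted p = 0.514). Without WT4 the gene was called, with a log2 fold change of 1.04 (adjusted p = 0.0160), as it was in limma-voom (1.08, adjusted p = 0.00104). *Slit2* had the same high WT4, at 1127 CPM against 281 to 418 CPM in the other WT libraries and 289 to 529 CPM in HOMO. *Robo1*, the tested receptor of the family, was at 24.1, 22.8, 17.2 and 5.34 CPM in WT and at 1.60, 1.85, 6.64 and 8.72 CPM in HOMO. The overlap came from WT4, and the gene missed the threshold (log2 fold change -1.89, SE 0.66, adjusted p = 0.0887). DESeq2 called *Robo1* (adjusted p = 0.0154), as did limma-voom (adjusted p = 0.00268).

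Of the netrins, 1 of 2 tested fell. *Ntn4*, a secreted laminin-related protein of basement membranes, was at 19.3, 18.5, 85.3 and 78.3 CPM in WT and at 12.7, 10.1, 12.4 and 10.4 CPM in HOMO. It fell 4.42-fold (log2 fold change -2.14, SE 0.53, adjusted p = 0.0326), with WT3 and WT4 far above WT1 and WT2, and these last near HOMO. In limma-voom with sample weights the fall was smaller (log2 fold change -0.78, adjusted p = 0.0179). The call was lost without WT4 or any HOMO library (log2 fold change -2.20 to -1.85, adjusted p = 0.0583 to 0.106). Macrophage marker RNA was also highest in WT3 and WT4, and its part in *Ntn4* was not tested. *Ntn1* had 1215 counts in WT3 against 113 to 183 in the other WT libraries and 88 to 148 in HOMO (log2 fold change -2.08, adjusted p = 0.135). Among the Unc5 receptors, *Unc5b*, a netrin-1 receptor known from endothelium, was the most abundant (52.2 CPM per kilobase). It was at 430, 398, 56.5 and 562 CPM in WT and at 255, 256, 354 and 304 CPM in HOMO, with WT3 below all others (log2 fold change -0.31, SE 0.54, adjusted p = 0.734). Without WT3 it was called, at a log2 fold change of -0.67 (adjusted p = 0.0355).

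**Figure D3:**
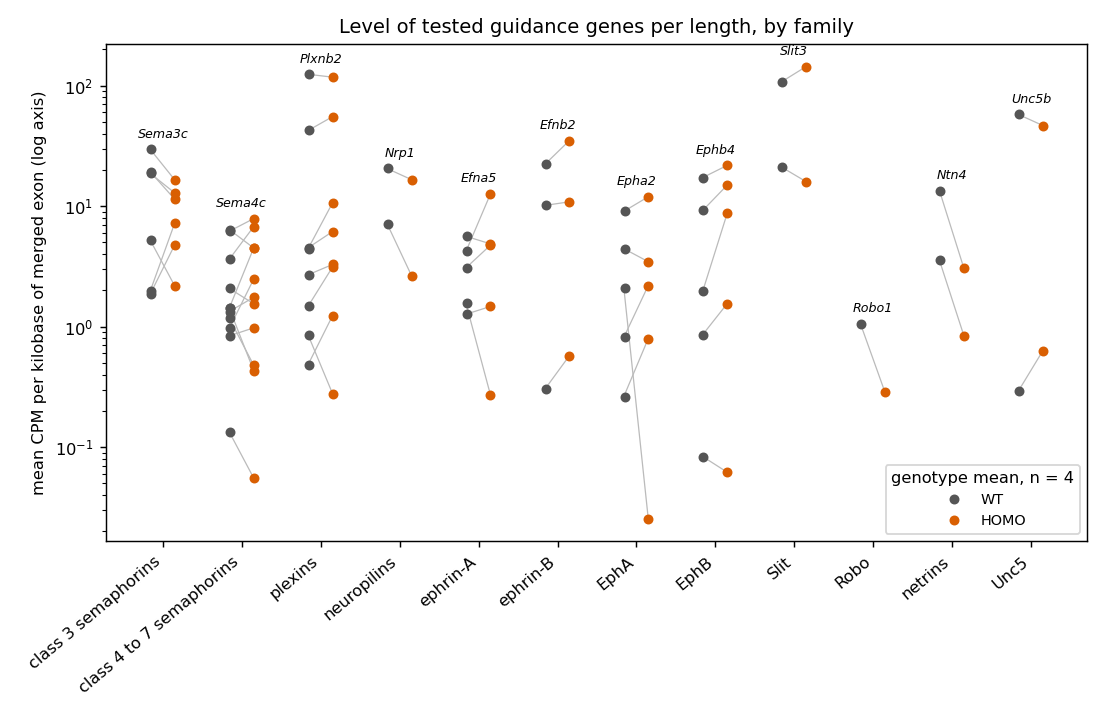
Mean level of each tested guidance gene in WT (gray) and HOMO (orange), in CPM per kilobase of merged exon on a log axis, by family, with a line joining the means of 1 gene (n = 4 libraries each) and the name of the most abundant member. *Slit3* and *Plxnb2* lie above 100 in both genotypes, and *Epha3* drops from 2.11 to 0.0254.

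The 15 guidance genes outside the edgeR test had at most 78 counts in any library. Of the 15, 2 did not overlap between the genotypes, while 27.3% of all tested genes did not. The share over all genes outside the test was not computed. *Sema3g* had 18, 20, 9 and 8 counts in WT and 0, 1, 3 and 2 in HOMO, at least 5.12-fold lower in HOMO against the floor of 3 counts per library. *Unc5c*, another netrin receptor, had 17, 23, 78 and 9 counts in WT and 0, 1, 3 and 3 in HOMO, at least 12.8-fold lower. Each had p = 0.0286 in a two-sided exact permutation test of CPM over 70 assignments, the smallest p this design allows, and 0.214 after Benjamini-Hochberg adjustment over the 15 genes, which does not pass. DESeq2 and edgeR without the low-count filter called both genes. The other 13 overlapped, among them the Robo genes *Robo2* (0 to 43 counts), *Robo3* (0 to 22) and *Robo4* (0 to 4), and *Sema4a* (2 to 36 counts). *Epha5*, *Epha6*, *Epha8* and *Epha10* had at most 7 counts in any library.

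Between WT1 and WT2 on one side and WT3 and WT4 on the other, 23 of the 52 differed by more than 2-fold in mean CPM (44.2%), against 20.96% of all tested genes, with 15 higher in WT3 and WT4 and 8 higher in WT1 and WT2. Between HOMO1 and HOMO2 and HOMO3 and HOMO4 the count was 10 of 52 (19.2%), against 10.95% of all tested genes. Of the 11 DEGs, the 8 upregulated genes stayed within 2-fold between these pairs in both genotypes, while the 3 downregulated genes differed by more than 2-fold within WT. These shares are descriptions and were not tested, and the libraries were divided this way because WT1 and WT2 and both HOMO pairs were near-identical, which WT3 and WT4 were not.

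**Figure D4:**
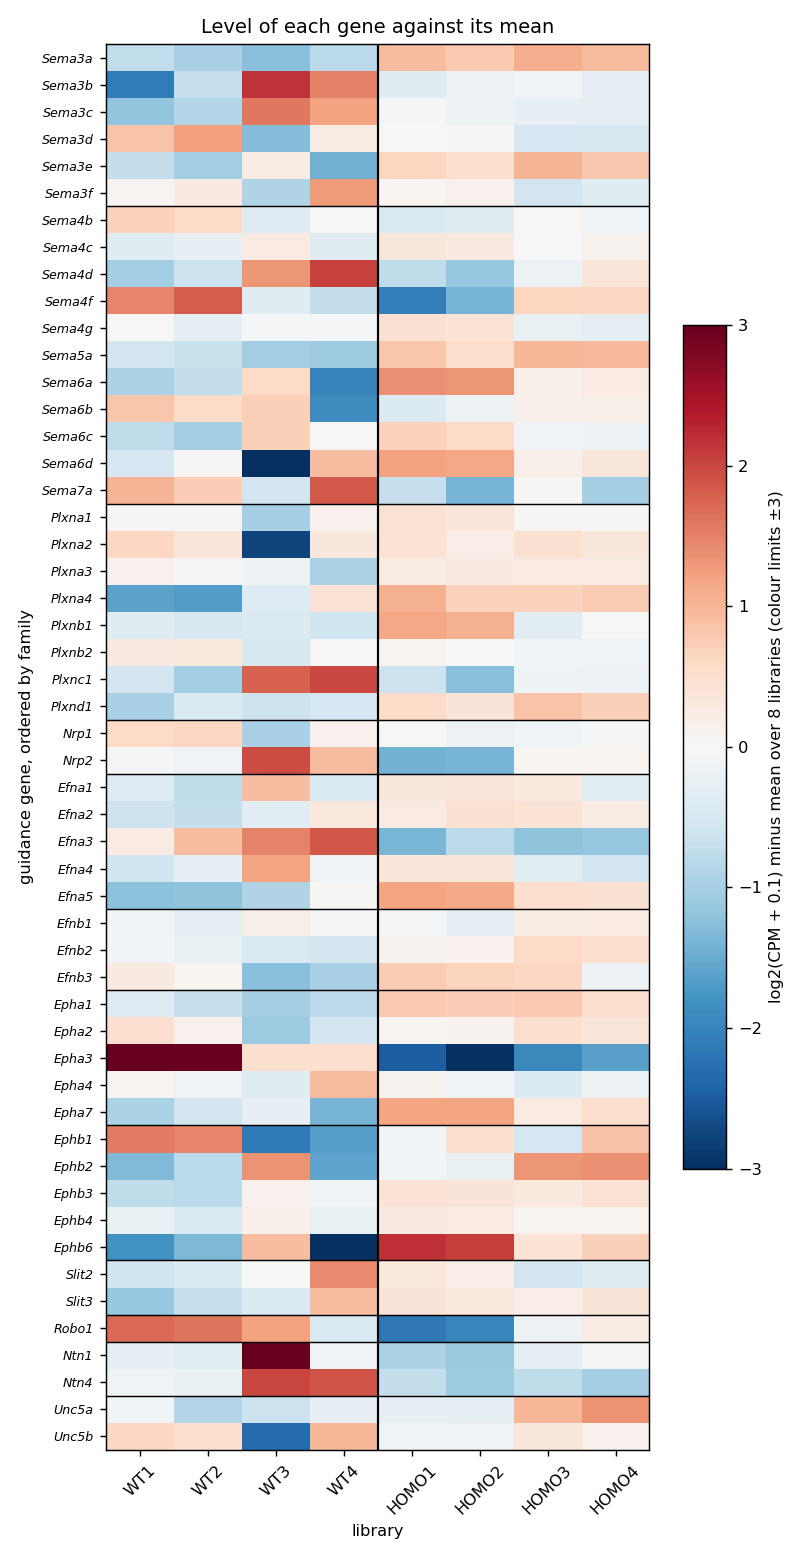
Level of the 52 tested guidance genes (rows, by family) in the 8 libraries (columns), as log2(CPM + 0.1) minus the mean of the gene over the libraries, in blue below and red above the mean, with colors limited at 3. WT3 and WT4 differ from WT1 and WT2 in rows such as *Ntn4*, *Plxnc1* and *Epha3*, while *Sema3a*, *Sema5a* and *Epha1* change between WT and HOMO.

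Other genes of the same pathways, namely co-receptors, cytoplasmic effectors and actin regulators, numbered 70, of which 66 were tested and 9 were called (13.6%), close to the share of all tested genes. The median log2 fold change of the 66 was -0.08, with 6 called up and 3 called down. *Draxin*, a secreted antagonist of netrin receptors, had 5, 6, 5 and 9 counts in WT and 583, 838, 294 and 271 in HOMO. It rose 66.5-fold from a level near the floor of counting (log2 fold change 6.06, SE 0.34, adjusted p = 0.000141). *Dpysl5*, a member of the collapsin response mediators that act downstream of semaphorins, had 31, 24, 5 and 124 counts in WT and 769, 1114, 389 and 369 in HOMO (log2 fold change 3.73, SE 0.71, adjusted p = 0.0143). *Dpysl2*, of the same family, fell (log2 fold change -0.97, SE 0.20, adjusted p = 0.0198), with 42.9 to 56.6 CPM in WT and 19.2 to 33.6 CPM in HOMO. *Mical3*, of the flavoprotein family that works downstream of plexins on actin, was at 31.4 to 43.0 CPM in WT and 73.7 to 126 CPM in HOMO and rose (log2 fold change 1.37, SE 0.21, adjusted p = 0.00672).

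*Rnd1*, a small GTPase that binds plexins, fell (log2 fold change -1.26, SE 0.29, adjusted p = 0.0260), with 99.0, 83.6, 36.5 and 83.8 CPM in WT and 28.3, 27.4, 38.2 and 32.3 CPM in HOMO. WT3 lay within the HOMO range, so these genotypes overlapped. *Mst1r*, a receptor tyrosine kinase that pairs with plexin-B receptors, was at 7.54, 7.34, 7.52 and 2.13 CPM in WT and at 18.4 to 21.8 CPM in HOMO and rose (log2 fold change 1.70, SE 0.37, adjusted p = 0.0223). *Flrt2*, an adhesion protein that binds Unc5 receptors, rose (log2 fold change 1.26, SE 0.33, adjusted p = 0.0416). It was at 12.8, 11.0, 34.3 and 19.9 CPM in WT and at 44.9, 44.0, 47.6 and 49.4 CPM in HOMO. *Dscam*, a netrin receptor, rose with 0 to 6 counts in WT and 18 to 32 in HOMO (log2 fold change 2.86, SE 0.73, adjusted p = 0.0372). *Lingo1*, a partner of the Nogo receptor, fell, with 11.5 to 60.8 CPM in WT and 1.66 to 4.36 CPM in HOMO (log2 fold change -3.30, SE 0.59, adjusted p = 0.0117). Of these pathway genes 3 were called without HOMO1 or without HOMO2 (4.55%, against 3.52% and 3.56% of all tested genes), 5 without HOMO4 (7.58% against 6.72%), 14 without WT3 (21.2% against 15%) and 6 without WT2 (9.09% against 8.29%). *Draxin*, *Mical3* and *Lingo1* were called in all 8 fits without a library, though not when near-identical libraries were summed. Leaving out HOMO1 or HOMO2 ended the call of the other 6, up to an adjusted p of 0.109 for *Dscam* over all 8 fits. Of the 8 fits, *Flrt2* was called in only 1, *Dscam* in 2, *Rnd1* in 3, *Mst1r* in 5 and *Dpysl2* and *Dpysl5* in 6 each. *Dscam*, *Rnd1* and *Flrt2* were among those lost without WT1 or WT2.

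**Figure D5:**
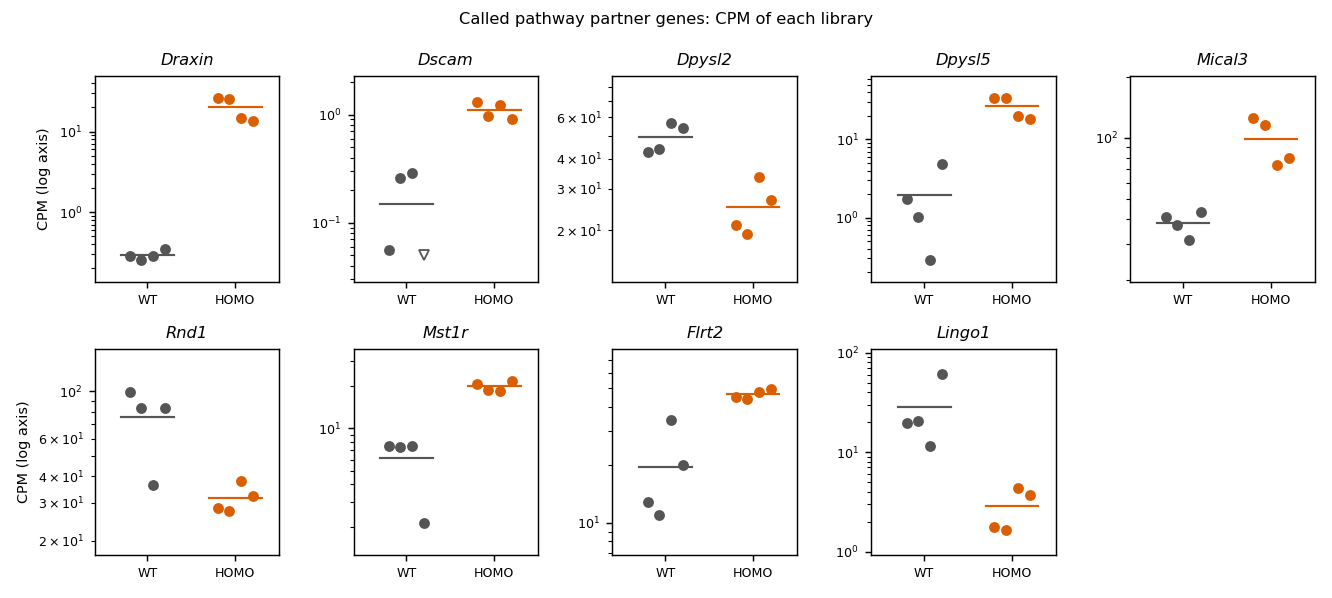
CPM (vertical log axes) of the 9 called pathway genes outside the guidance families, with 1 point for each library in the order 1 to 4 and a line at the mean of the 4 libraries, in gray for WT and orange for HOMO. *Draxin* shows the widest gap, and in *Rnd1* the WT3 point lies among the HOMO points. The open triangle is a count of 0 for *Dscam* in WT4, drawn at 0.05 CPM.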

How the data were processed

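The authors trimmed the reads of poly-A selected libraries (fastp), aligned these to mm10 (STAR) and deposited whole-number counts per gene from featureCounts, without normalization. Versions, the strand setting and the meaning of the label that an outlier was left out are not given in the sources used here. The library kit does not mark strand. All 8 libraries were used, and 0 columns were left aside.

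The guidance genes and the list of pathway genes were chosen with earlier results of these data known. Genes were matched by symbol to GENCODE M21 (GRCm38), which held all 67. HOMO was compared with WT in edgeR 4.0.16 (R 4.3.3, TMM, filterByExpr by genotype, two-sided quasi-likelihood F test, Benjamini-Hochberg over 14150 genes). The standard error is the log2 fold change over the square root of F. CPM used TMM-scaled library sizes. An exact permutation test, two-sided, was used for genes that edgeR's filter left out. Named with full values were all called guidance genes, the most abundant tested member of each family per kilobase of merged exon and the called pathway genes. Others are given by selected values, chosen after they were seen. Alternatives used DESeq2 1.42.0 and limma 3.58.1, and figures matplotlib 3.10.9. The fits were tested on simulated data in which all libraries were drawn independently. Near-identical pairs were not simulated, so false calls that come from such pairs were not tested. Promoters came from RefSeq (GRCm38.p6), with 58 of the 67 matched. The human transgene was not analysed here, and protein sequences were not used.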

Additional observations from a re-analysis of the deposited data

Results flagged for a closer look

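Dixon's criterion was applied to 58 groups of 4 libraries (29 named genes in each genotype). In 3 groups a library lay far from the other 3 of its genotype. Chance meets the criterion in about 1 of 20 groups of independent libraries, a rate that does not hold with near-identical pairs. All 3 were in WT. HOMO1/HOMO2 and HOMO3/HOMO4 were near-identical, a layout in which a single library hardly stands apart. The lack of flags in HOMO is thus no comparison of the genotypes. *Unc5b* was at 5.82 log2 CPM in WT3 and at 8.64 to 9.13 in the other WT libraries. *Rnd1* was at 5.19 log2 CPM in WT3 against 6.39 to 6.63. *Mst1r* was at 1.15 log2 CPM in WT4 against 2.89 to 2.93.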

How the results depend on the processing

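RLE and upper-quartile normalization, a CPM filter and no fold change threshold each left 11 guidance genes called. These were 21.2 to 22% of the guidance genes tested, against 12.2 to 13.4% of all genes. DESeq2 called 20 (8 down), no low-count filter 12 (5 down, 17.9% against 5.28% of all genes), and limma-voom with sample weights 27 (18 up, 9 down, 51.9% against 25.3%) with 18 pathway genes (27.3%). Summed near-identical libraries gave 0 guidance genes (0 up, 0 down) and 0 pathway genes. Leaving out 1 library gave 5 to 19 guidance genes (4 to 12 up, 1 to 7 down) and 3 to 14 pathway genes. Those were 9.09 to 35.2% of guidance genes and 4.55 to 21.2% of pathway genes, against 3.52 to 15% of all genes. *Sema3c* turned to 0.67 in limma-voom, and *Plxnb2* to 0.0122 when libraries were summed and, over the fits without a library, ran from -0.22 to 0.0078. The reversal without WT2 was the one at 0.0078. The causes were not tested, and the summed fit also had fewer units.

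With the replicate number as a block, 7 guidance genes were called (5 up), which is 13.5% against 6.69% of all tested genes. *Sema3a*, *Sema3e*, *Sema5a*, *Plxnd1*, *Efna3* and *Epha1* were kept and *Nrp2* was gained. Same-numbered libraries of the genotypes deviated with correlations of -0.12 to 0.01, and no sample correlated best with its own number. These values gave no sign of a pairing. They cannot exclude a pairing, because near-identical libraries share their deviations and a partner can hardly be told from its near-identical library. Depth limits the 15 guidance genes outside the test, where 3 counts was the floor.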
